A study of Mus musculus with 48 samples.

Results

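Fatty acid oxidation and ketogenesis in mouse liver were followed through 35 genes: the nuclear receptor PPARalpha (Ppara), its known targets, and enzymes and carriers of fatty acid oxidation and ketone body formation. The 35 were listed by symbol and found as rows of the deposited table of 14251 genes, and all 35 were among the 12688 genes with enough counts to be tested. By the place of the encoded protein, 16 were grouped as mitochondrial, 8 as peroxisomal, 5 as microsomal and 3 as cytosolic or membrane-anchored. Another 2, Bdh1 and Acat1, were set apart by function as ketogenic, and the last is Ppara itself. Crat (grouped as mitochondrial) and Ech1 (grouped as peroxisomal) are found in both organelles. Acat1 also serves the breakdown of isoleucine and ketone bodies. The livers came from male C57BL6J mice of unstated age, and RNA was read by QuantSeq, which makes libraries from the 3′ ends of polyadenylated transcripts. For 2 weeks the drinking water held corticosterone at 100 ug/ml, the main glucocorticoid of mice, or the 1% ethanol vehicle, so every group drank a dosed or vehicle solution and none drank plain water. Within each treatment the mice ate a control diet or food with atglistatin milled in at 571 mg/kg, which inhibits the triglyceride lipase ATGL, the enzyme that starts the breakdown of stored fat. The groups, named here as in the labels, are EtOH CON (vehicle, control diet, 10 libraries), EtOH ATGLi (vehicle, atglistatin, 10), Cort CON (corticosterone, control diet, 14) and Cort ATGLi (corticosterone, atglistatin, 14). No transgene or mutation is named. Atglistatin went to the whole animal in its food, not to liver alone.

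PPARalpha is a receptor for fatty acids and their derivatives, which binds DNA with RXR at repeats of a half-site separated by 1 base (DR1 elements). In liver it is best known for the fasting response, when fatty acids leave adipose tissue and lipid droplets and hepatocytes burn them or turn them into ketone bodies. Mitochondria take up acyl chains through the carnitine shuttle and shorten them by beta-oxidation, peroxisomes shorten very long and branched chains, and microsomal Cyp4a enzymes start omega-oxidation from the methyl end. Acyl-CoA thioesterases (Acot) release free fatty acids from their CoA esters, and Cyp4a and Acot genes are among the most inducible PPARalpha targets in mouse liver.

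Total counts ran from 7449109 to 21175603 per library. Fkbp5, a glucocorticoid-induced gene used as a check of the labels, had a median of 8.06 and 14.6 CPM (counts scaled to the library total) in the vehicle groups on control and atglistatin diet and 308 and 183 CPM in the corticosterone groups, with no overlap between treatments. The 6 hepatocyte markers summed to between 75682 and 140173 CPM. Their medians were 104924 CPM in EtOH CON, 96467 in EtOH ATGLi, 120786 in Cort CON and 104059 in Cort ATGLi, and every pair of groups overlapped. In 6 libraries the pancreatic gene Cpa1 exceeded 20 CPM: EtOH CON replicates 9, 10 and 15, EtOH ATGLi replicates 6 and 11, and Cort CON replicate 30. All 8 pancreatic acinar markers were in the table, and they summed to 0.531 to 375 CPM in EtOH CON and 0.0655 to 5181 in EtOH ATGLi. In Cort CON the sum was 0.153 to 2489 and in Cort ATGLi 0.0461 to 57.4 CPM. Cort ATGLi replicate 41 lay farthest from the rest of its group and had a labelled insulin of 2.19 (the labels give no unit), the lowest there. A clock index was taken as the log2 difference between Dbp and Arntl. Its medians were -0.93, 2.62, -2.11 and 0.76 in EtOH CON, EtOH ATGLi, Cort CON and Cort ATGLi libraries. The index thus differed with diet, and its median was also lower under corticosterone on each diet. The 8 macrophage markers, all measured, summed to 161 to 291 and 123 to 228 CPM in the vehicle groups and 57.4 to 129 and 43.5 to 267 CPM in the corticosterone groups, in the same order of diets. Of 8 lymphocyte markers 5 were in the table, and their sums were 8.62 to 20.9 and 7.99 to 13 CPM under vehicle and 1.37 to 5.59 and 1.33 to 4.05 CPM under corticosterone, with no overlap between treatments. The 6 endothelial markers had medians of 229 and 226 CPM under vehicle and 178 and 159 under corticosterone. The 4 cholangiocyte markers had medians of 41.7 and 23.3 CPM under vehicle and 58.5 and 39.7 under corticosterone; for both of these lists the treatments overlapped on each diet. The part of these cell types in the results was not tested. In bulk liver RNA, fewer cells of a type and less RNA per cell cannot be told apart.

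Corticosterone moved most of the 35 genes, and upward more often than downward. On the control diet 17 were higher and 6 lower at an adjusted p of at most 0.05, or 65.7% of them, where 44.2% of all genes tested passed (22.5% higher and 21.7% lower). On the atglistatin diet 14 were higher and 7 lower, against 36.7% of all genes (19% higher and 17.7% lower). The median log2 fold change of the 35 was 0.22 and 0.19 on the control and atglistatin diet, beside 0.01 and 0.02 for all genes. On both diets 12 passed as higher (Cpt2, Slc25a20, Acadm, Acadvl, Etfdh, Acot2, Crat, Acot4, Pex11a, Hsdl2, Acat1 and Acot1) and 5 as lower (Ppara, Acaa1a, Acaa1b, Bdh1 and Fabp1). None passed in opposite directions, and 8 passed in none of the comparisons between groups (Acadl, Acads, Hadhb, Hadh, Pdk4, Ehhadh, Cyp4a31 and Aldh3a2). With atglistatin under vehicle 4 were higher and 0 lower, or 11.4% of them, where 3.13% of all genes passed (1.47% as higher). With atglistatin under corticosterone 3 were higher and 1 lower, again 11.4%. That lies near the 11.7% of all genes that passed there (5.19% as higher and 6.47% as lower). These comparisons share groups, so their counts are not independent of each other.

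**Figure D1:**
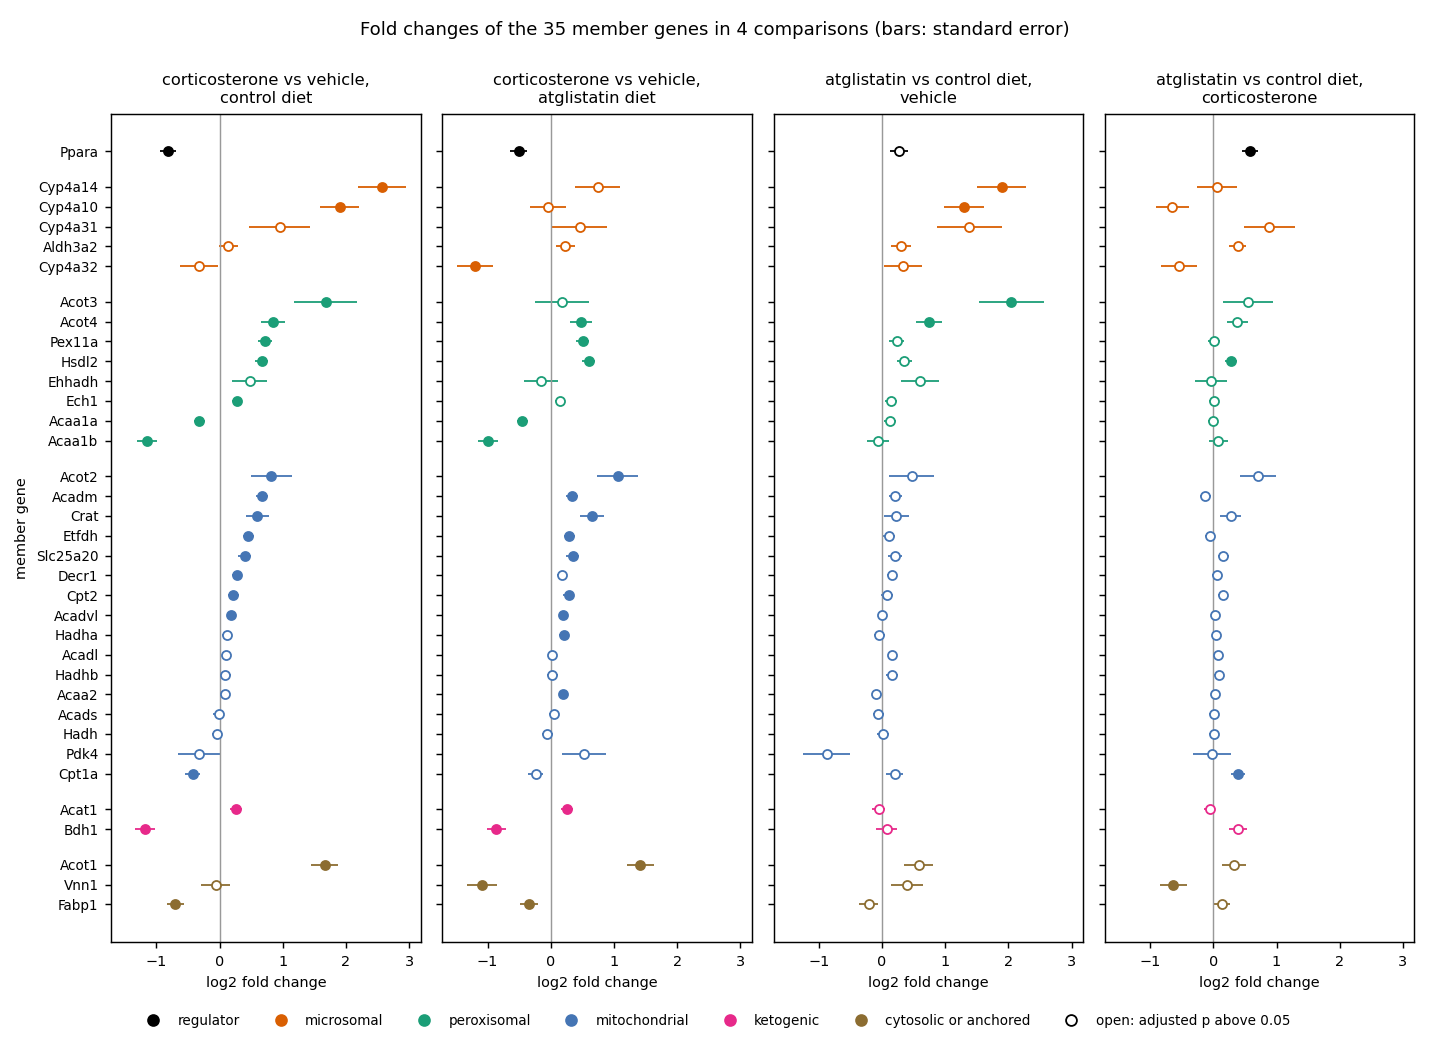
Fitted log2 fold changes of the 35 genes, with bars of 1 standard error, in the 4 comparisons between groups, ordered and coloured by compartment; filled points passed at an adjusted p of at most 0.05. Among corticosterone effects on the control diet Cyp4a14, Cyp4a10, Acot3 and Acot1 lie farthest right and Bdh1 and Acaa1b farthest left.

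Ppara, the receptor gene, was lowered by corticosterone and was higher on atglistatin among corticosterone-treated mice. Given as the lowest, median and highest library of a group, here and for the genes that follow, Ppara had 57.8, 76.6 and 99 CPM in EtOH CON and 58.3, 98.2 and 139 CPM in EtOH ATGLi. Ppara in Cort CON was at 27.7, 41.9 and 70.6 CPM, and in Cort ATGLi at 52.5, 63.2 and 102 CPM. The Cort CON libraries were mostly below the vehicle range, and every pair of groups overlapped. Differences are given from here on as log2 fold changes ± SE. Ppara fell with corticosterone on the control diet (1.76-fold lower, log2 fold change -0.82 ± 0.13 (SE), adjusted p = 1.36e-06, edgeR's quasi-likelihood test), with all 14 libraries under the vehicle mean. The change on the atglistatin diet was -0.51 ± 0.13, adjusted p = 0.00194. Between diets under corticosterone Ppara was higher with atglistatin (0.58 ± 0.12, adjusted p = 0.000794, above the control-diet mean in 14 of 14 libraries). With the clock index as a covariate neither of those last calls passed (-0.25, adjusted p = 0.172 for corticosterone on the atglistatin diet and 0.35, adjusted p = 0.104 for atglistatin under corticosterone). Under vehicle the diet difference did not pass (0.27 ± 0.14, adjusted p = 0.351).

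**Figure D2:**
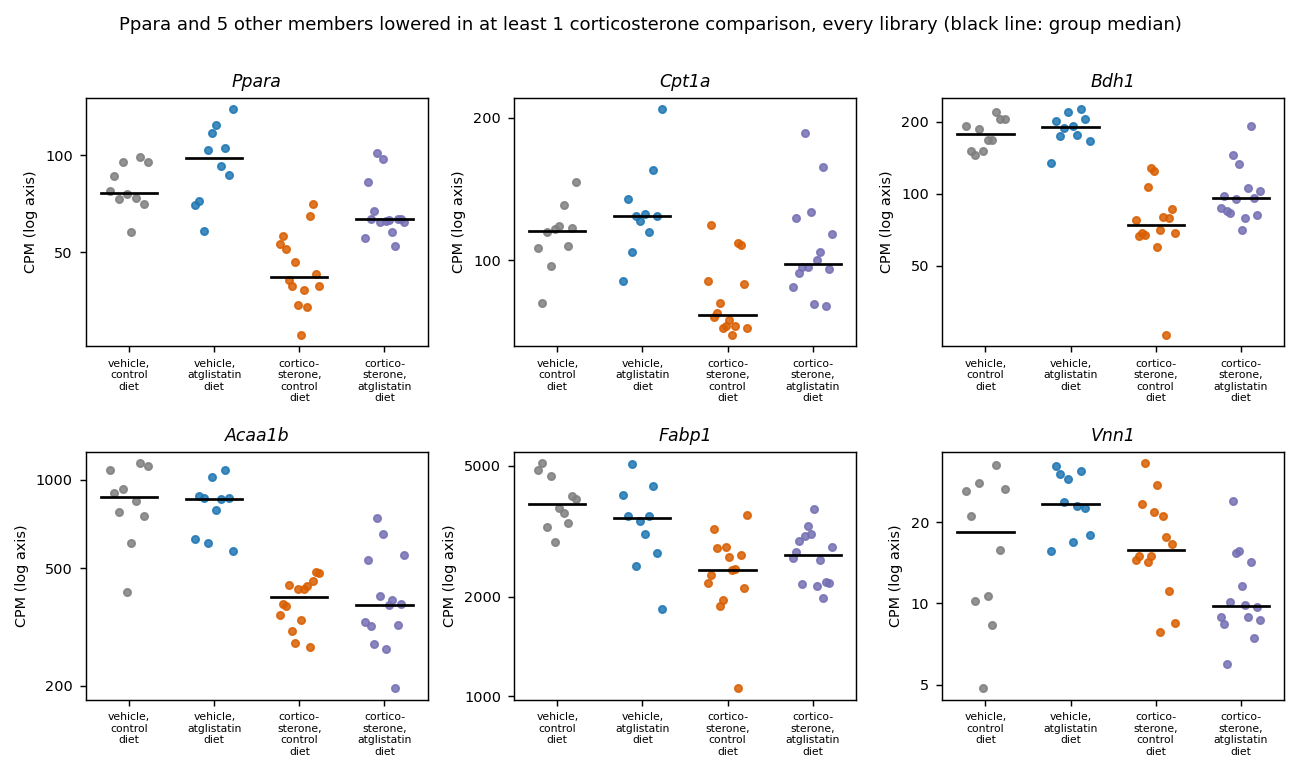
CPM of every library (points, log axis) and the group median (bar) for Ppara and 5 other members that were lower in at least 1 corticosterone comparison. The Cort CON libraries of Bdh1 lie wholly below the EtOH CON libraries. For the other genes the groups overlap between treatments on each diet and between diets within each treatment.

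Cyp4a14 and Cyp4a10, microsomal omega-hydroxylases, had the greatest rises of the 35 genes with corticosterone on the control diet. The 4 Cyp4a genes form a cluster on chromosome 4 (GRCm38, chr4:115486200-115621602), and Aldh3a2 encodes the fatty aldehyde dehydrogenase that acts after them. Cyp4a14 had 13.4, 224 and 422 CPM in EtOH CON and 447, 823 and 1276 CPM in EtOH ATGLi. Cyp4a14 in Cort CON was at 302, 1019.8 and 2999 CPM, and in Cort ATGLi at 604, 1324 and 2796 CPM. The vehicle groups did not overlap, since every atglistatin library was above every control-diet library; under corticosterone the diets overlapped almost throughout. Cyp4a14 was 5.97-fold higher with corticosterone on the control diet (2.58 ± 0.38, adjusted p = 2.32e-07) and 3.71-fold higher with atglistatin under vehicle (1.89 ± 0.39, adjusted p = 0.00194). With corticosterone on the atglistatin diet the difference was 0.74 ± 0.35, adjusted p = 0.0954 (95% interval 0.03 to 1.45), and between diets under corticosterone it was 0.06 ± 0.32, adjusted p = 0.944 (95% interval -0.58 to 0.69). The first of these passed when the 2 compared groups were fitted alone (0.72, adjusted p = 0.00613) and without the libraries with Cpa1 above 20 CPM (0.80, adjusted p = 0.029).

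Cyp4a10, the neighbouring hydroxylase, had 25.6, 147 and 296 CPM in EtOH CON and 165, 382 and 577 CPM in EtOH ATGLi. Cyp4a10 in Cort CON was at 193, 587 and 1114 CPM, and in Cort ATGLi at 216, 345 and 879.9 CPM. Its medians thus ran highest in the Cort CON group and lowest in EtOH CON, with the atglistatin groups between, and every pair of groups overlapped. Cyp4a10 was 3.73-fold higher with corticosterone on the control diet (1.90 ± 0.30, adjusted p = 1.10e-06, 14 of 14 libraries above the vehicle mean). It was 2.45-fold higher with atglistatin under vehicle (1.29 ± 0.31, adjusted p = 0.0105, 10 of 10 libraries). With corticosterone on the atglistatin diet Cyp4a10 had a difference of -0.04 ± 0.28 (adjusted p = 0.924, 95% interval -0.62 to 0.53). Under corticosterone the diet difference was -0.65 ± 0.26, adjusted p = 0.0995; it passed without Cort ATGLi replicate 23 (-0.80, adjusted p = 0.0338) and with the 2 groups fitted alone (-0.65, adjusted p = 0.044).

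Of the 3 other microsomal genes none passed as higher in edgeR's quasi-likelihood test with all libraries fitted. Cyp4a31 had 2.1, 2.94 and 7.42 CPM in EtOH CON and 2.82, 8.9 and 16.9 CPM in EtOH ATGLi. Cyp4a31 in Cort CON was at 2.54, 4.48 and 14.3 CPM, and in Cort ATGLi at 2.95, 6.05 and 96.8 CPM. Its difference was 0.95 ± 0.48, adjusted p = 0.106 with corticosterone on the control diet and 1.38 ± 0.51, adjusted p = 0.131 with atglistatin under vehicle, and both passed when only the compared groups were fitted (0.94, adjusted p = 0.0142 and 1.39, adjusted p = 0.00523). Cyp4a32, at a median of 0.796, 0.989, 0.473 and 0.381 CPM in EtOH CON, EtOH ATGLi, Cort CON and Cort ATGLi libraries, was lower with corticosterone on the atglistatin diet (-1.20 ± 0.29, adjusted p = 0.00088). Of the 50-base words in the last 500 bases of Cyp4a32 transcripts 66.7% also occur in Cyp4a10 or Cyp4a31, so its counts, and in part those of Cyp4a31 (15.5%) and Cyp4a10 (5.95%), are uncertain; Cyp4a14 shares none. Aldh3a2 differed by 0.38 ± 0.13, adjusted p = 0.0514 with atglistatin under corticosterone, and passed without any 1 of 5 libraries (Cort CON replicates 30, 45 and 46 and Cort ATGLi replicates 18 and 42; 0.39 to 0.42, adjusted p = 0.0365 to 0.0499). Aldh3a2 also passed in DESeq2 (0.38, adjusted p = 0.0454), with the compared groups alone (0.38, adjusted p = 0.0264), without the libraries with Cpa1 above 20 CPM (0.42, adjusted p = 0.0125) and without those labelled diabetic (0.70, adjusted p = 0.0319).

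**Figure D3:**
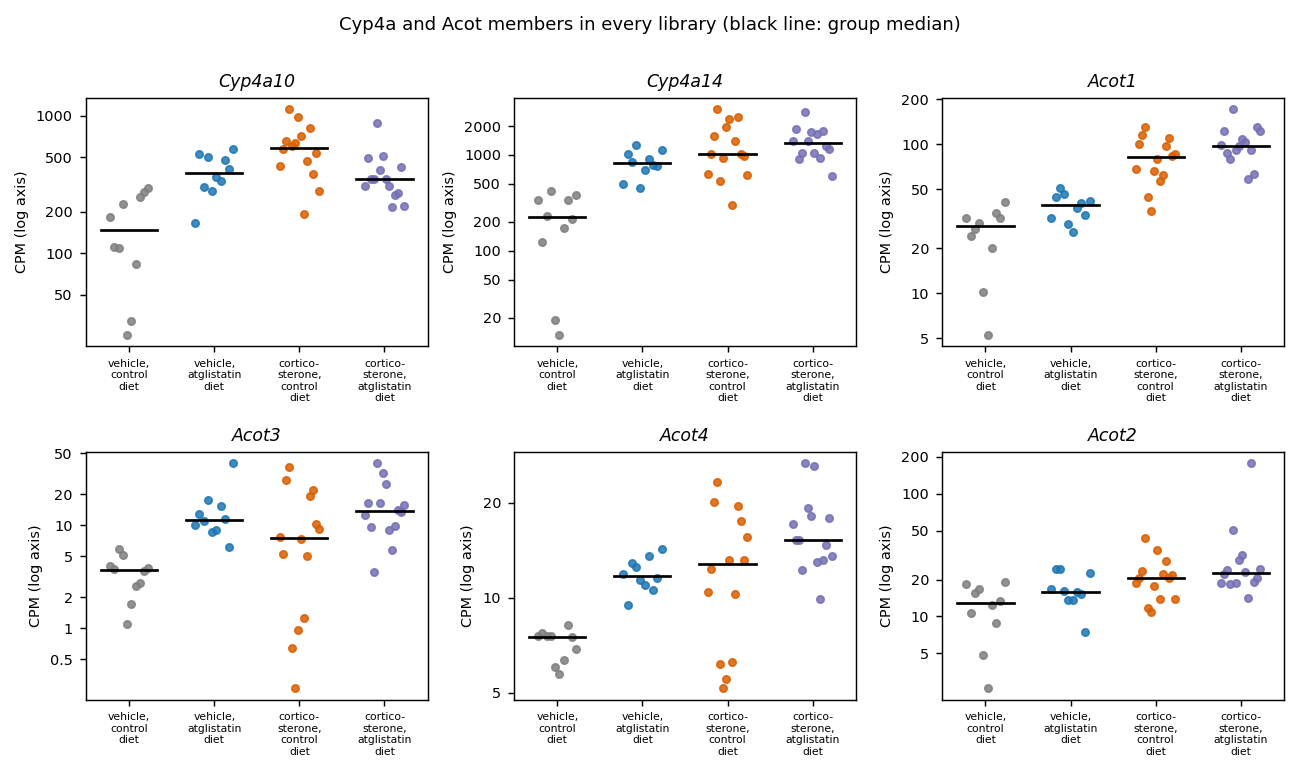
CPM of every library (points, log axis) and the group median (bar) for Cyp4a and Acot genes in the 4 groups. EtOH ATGLi libraries lie above all EtOH CON libraries for Cyp4a14, Acot3 and Acot4, and 4 Cort CON libraries of Acot3 lie far below the other 10.

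Peroxisomal genes split into rises and falls. On the control diet corticosterone raised 5 of the 8 (Acot3, Acot4, Pex11a, Ech1 and Hsdl2) and lowered 2 (Acaa1a and Acaa1b), with a median log2 fold change of 0.57; on the atglistatin diet it raised 3 and lowered the same 2. Acot3, a peroxisomal long-chain thioesterase, had 1.11, 3.69 and 5.84 CPM in EtOH CON and 6.21, 11.2 and 40.3 CPM in EtOH ATGLi. Acot3 in Cort CON was at 0.261, 7.53 and 37.2 CPM, and in Cort ATGLi at 3.55, 13.8 and 40.4 CPM. Vehicle groups did not overlap between diets, while the Cort CON libraries spread wider than any other group. Acot3 was 4.13-fold higher with atglistatin under vehicle (2.05 ± 0.52, adjusted p = 0.0148) and 3.2-fold higher with corticosterone on the control diet (1.68 ± 0.49, adjusted p = 0.00457), where 10 of 14 libraries were above the vehicle mean. The corticosterone difference did not pass in limma voom with sample weights (0.70, adjusted p = 0.395), and the atglistatin difference did not pass without EtOH ATGLi replicate 14 (1.72, adjusted p = 0.0533), in limma voom (1.76, adjusted p = 0.0737) or with the clock index as a covariate (1.14, adjusted p = 0.631). Acot4, which acts on succinyl- and dicarboxylyl-CoA, had 5.72, 7.54 and 8.2 CPM in EtOH CON and 9.51, 11.7 and 14.2 CPM in EtOH ATGLi. Acot4 in Cort CON was at 5.17, 12.8 and 23.2 CPM, and in Cort ATGLi at 9.94, 15.2 and 26.8 CPM. Here too all EtOH ATGLi libraries were above all EtOH CON libraries, the Cort CON libraries overlapped both groups, and the Cort ATGLi libraries overlapped EtOH ATGLi. Acot4 was higher with corticosterone on the control diet (0.84 ± 0.19, adjusted p = 0.000274) and on the atglistatin diet (0.48 ± 0.18, adjusted p = 0.0321), and with atglistatin under vehicle (0.74 ± 0.20, adjusted p = 0.0263). The control-diet call was lost without the libraries labelled diabetic, where the value was 0.48. The call under vehicle was lost without EtOH ATGLi replicate 11 (0.72, adjusted p = 0.0511), with the clock index (0.44, adjusted p = 0.639) and with the replicate number as a block (0.74, adjusted p = 0.0653). The call on the atglistatin diet was lost without any 1 of 8 libraries (EtOH ATGLi replicates 5, 6, 12 and 13 and Cort ATGLi replicates 13, 23, 24 and 26; 0.39 to 0.45, adjusted p = 0.0519 to 0.088) and with the block (0.44, adjusted p = 0.115).

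Pex11a, which promotes peroxisome division, and Hsdl2, a peroxisomal dehydrogenase-like protein, rose on both diets. Pex11a had 108, 187 and 255 CPM in EtOH CON and 180.3, 207 and 277 CPM in EtOH ATGLi. Pex11a in Cort CON was at 255, 299 and 365 CPM, and in Cort ATGLi at 229, 299 and 413 CPM. Its medians under corticosterone were nearly the same on both diets and above the vehicle medians, and it rose by 0.72 ± 0.11, adjusted p = 3.94e-07 on the control diet and 0.50 ± 0.11, adjusted p = 0.000245 on the atglistatin diet. Hsdl2 had 36, 47.9 and 51 CPM in EtOH CON and 44.8, 60.2 and 74.4 CPM in EtOH ATGLi. Hsdl2 in Cort CON was at 48.2, 71 and 102 CPM, and in Cort ATGLi at 66.4, 86.2 and 120.5 CPM. It rose with corticosterone by 0.67 ± 0.11, adjusted p = 1.17e-06 on the control diet and 0.60 ± 0.11, adjusted p = 1.31e-05 on the atglistatin diet. Atglistatin under corticosterone raised Hsdl2 by 0.28 ± 0.10, adjusted p = 0.0452, a call lost without any 1 of 20 libraries (Cort CON replicates 27, 29, 32, 33, 34, 35, 36, 37, 49 and 50 and Cort ATGLi replicates 13, 14, 17, 23, 24, 25, 26, 41, 47 and 48; 0.24 to 0.29, adjusted p = 0.0517 to 0.0939) and with the clock index (0.23, adjusted p = 0.266). Under vehicle its difference of 0.35 ± 0.11, adjusted p = 0.0767 passed without EtOH ATGLi replicate 5 (0.38, adjusted p = 0.0493) and with the 2 groups fitted alone (0.36, adjusted p = 0.0233). Ech1, a dienoyl-CoA isomerase, was higher by 0.27 ± 0.08, adjusted p = 0.00541 on the control diet.

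The peroxisomal thiolases Acaa1a and Acaa1b, which release acetyl-CoA in the last step of the peroxisomal cycle, fell on both diets. Acaa1b had 417, 874 and 1141 CPM in EtOH CON and 573, 862 and 1079.9 CPM in EtOH ATGLi. Acaa1b in Cort CON was at 271, 401 and 484 CPM, and in Cort ATGLi at 196, 377 and 743 CPM. Its corticosterone libraries lay mostly under the vehicle libraries on each diet, with overlap at the edges. Acaa1b was 2.21-fold lower on the control diet (-1.14 ± 0.16, adjusted p = 5.90e-08) and 1.99-fold lower on the atglistatin diet (-0.99 ± 0.16, adjusted p = 1.99e-06). Acaa1a, with 53, 64.9 and 92.9 CPM in EtOH CON and 45.3, 55.4 and 66.5 in the Cort CON group, changed by -0.32 ± 0.09, adjusted p = 0.00222 on the control diet and -0.45 ± 0.09, adjusted p = 4.09e-05 on the atglistatin diet. The pair share 31.6% of the 50-base words at the ends of Acaa1a transcripts and 38.8% of those of Acaa1b, so reads could be split between them. Ehhadh, the bifunctional enzyme between the oxidase and thiolase steps, was uneven within each group (lowest to highest 5.35 to 41.9 CPM in EtOH CON) and differed by 0.48 ± 0.28, adjusted p = 0.16 on the control diet and 0.60 ± 0.30, adjusted p = 0.307 with atglistatin under vehicle; the former passed with the clock index as a covariate (0.64, adjusted p = 0.0499).

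Among the 16 mitochondrial genes, small rises with corticosterone were common. On the control diet 8 were higher and Cpt1a was lower, with a median log2 fold change of 0.15; on the atglistatin diet 9 were higher and 0 lower, with a median of 0.20. Acadm, the medium-chain acyl-CoA dehydrogenase, had 121, 217 and 304 CPM in EtOH CON and 217, 263 and 296 CPM in EtOH ATGLi. Acadm in Cort CON was at 292, 341 and 514 CPM, and in Cort ATGLi at 286, 321 and 416 CPM. Corticosterone medians were above the vehicle medians on both diets and the groups overlapped at their edges. Acadm rose by 0.68 ± 0.10, adjusted p = 8.85e-08 on the control diet and 0.34 ± 0.10, adjusted p = 0.0043 on the atglistatin diet. Etfdh, which passes electrons from the acyl-CoA dehydrogenases to ubiquinone, rose by 0.45 ± 0.09, adjusted p = 2.48e-05 on the control diet and 0.29 ± 0.09, adjusted p = 0.00619 on the atglistatin diet. The carnitine-acylcarnitine carrier Slc25a20 rose by 0.40 ± 0.10, adjusted p = 0.000811 and 0.35 ± 0.10, adjusted p = 0.00422 in the same order. Crat, which moves short acyl groups between CoA and carnitine, had 8.17, 16.2 and 20.4 CPM in EtOH CON and 13.8, 18.7 and 22.7 CPM in EtOH ATGLi. Crat in Cort CON was at 10.9, 23 and 62.8 CPM, and in Cort ATGLi at 19.3, 29.8 and 39.8 CPM. It rose by 0.60 ± 0.19, adjusted p = 0.00751 on the control diet and 0.65 ± 0.18, adjusted p = 0.00452 on the atglistatin diet, and with atglistatin under corticosterone it passed without Cort CON replicate 45 (0.45, adjusted p = 0.0284, against 0.27 ± 0.17, adjusted p = 0.316 with all libraries), and was 0.74 without the libraries labelled diabetic.

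Cpt1a, the rate-limiting entry step of the carnitine shuttle, was the gene of the mitochondrial group that passed as lower. It had 81.3, 115 and 146 CPM in EtOH CON and 90.3, 124 and 209 CPM in EtOH ATGLi. Cpt1a in Cort CON was at 69.5, 76.6 and 118 CPM, and in Cort ATGLi at 79.9, 98.2 and 186 CPM. The Cort CON libraries had the lowest median, and all groups overlapped. Cpt1a changed by -0.43 ± 0.12, adjusted p = 0.00361 with corticosterone on the control diet and by 0.38 ± 0.11, adjusted p = 0.018 with atglistatin under corticosterone. The latter did not pass with the clock index as a covariate (0.22, adjusted p = 0.347). On the atglistatin diet the corticosterone difference was -0.24 ± 0.12, adjusted p = 0.117 and passed without any 1 of 3 libraries (EtOH ATGLi replicate 5 and Cort ATGLi replicates 23 and 41; -0.32 to -0.29, adjusted p = 0.0235 to 0.0482). Cpt2, its partner on the inner membrane, was higher by 0.22 ± 0.09, adjusted p = 0.0362 on the control diet and 0.28 ± 0.09, adjusted p = 0.00869 on the atglistatin diet. The former call was lost without any 1 of 12 libraries (EtOH CON replicates 2, 3, 4, 9, 10 and 11 and Cort CON replicates 28, 30, 35, 45, 46 and 49; 0.16 to 0.21, adjusted p = 0.0516 to 0.109).

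Acot2, the mitochondrial thioesterase of the Acot cluster, had 2.6, 13 and 19.1 CPM in EtOH CON and 7.47, 16 and 24.5 CPM in EtOH ATGLi. Acot2 in Cort CON was at 10.9, 20.7 and 43.6 CPM, and in Cort ATGLi at 14.3, 22.5 and 179 CPM. The highest value was Cort ATGLi replicate 41, far above the next library of its group. Acot2 was higher with corticosterone by 0.82 ± 0.33, adjusted p = 0.0388 on the control diet and 1.06 ± 0.33, adjusted p = 0.00857 on the atglistatin diet. The latter did not pass without Cort ATGLi replicate 41 (0.51, adjusted p = 0.0795) or with the replicate block (0.67, adjusted p = 0.148). The former did not pass without any 1 of 8 libraries (EtOH CON replicates 2, 9, 10 and 12 and Cort CON replicates 29, 30, 35 and 45; 0.69 to 0.80, adjusted p = 0.0506 to 0.086) or without the libraries with Cpa1 above 20 CPM (0.46, adjusted p = 0.319).

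Differences in the core beta-oxidation enzymes were small. Acadvl, the very-long-chain dehydrogenase, was higher by 0.17 ± 0.06, adjusted p = 0.0155 on the control diet and 0.19 ± 0.06, adjusted p = 0.00977 on the atglistatin diet, the latter lost without EtOH ATGLi replicate 5 (0.14, adjusted p = 0.0637). Hadha, the alpha subunit of the trifunctional protein, was higher on the atglistatin diet (0.20 ± 0.08, adjusted p = 0.0322), as was the thiolase Acaa2 (0.19 ± 0.06, adjusted p = 0.0111). Hadha lost its call without any 1 of 8 libraries (EtOH ATGLi replicates 5, 7, 13 and 14 and Cort ATGLi replicates 23, 26, 40 and 48; 0.15 to 0.19, adjusted p = 0.0537 to 0.134), and Acaa2 lost its call without EtOH ATGLi replicate 5 (0.14, adjusted p = 0.065). Leaving out that library brought the members higher on the atglistatin diet from 14 to 9. Decr1, a reductase needed for unsaturated chains, was higher by 0.27 ± 0.08, adjusted p = 0.00338 on the control diet. Hadhb, the beta subunit, differed by 0.09 ± 0.08, adjusted p = 0.392 and 0.02 ± 0.08, adjusted p = 0.866 in the same order of diets, and shares 35.4% of its 50-base end words with the loci Gm13910 and Gm9108. Hadha and Hadhb are transcribed away from each other from starts at chr5:30155162 and chr5:30155248. Acadl, Acads and Hadh, further dehydrogenases of the cycle, differed by 0.10, -0.01 and -0.04 on the control diet and 0.02, 0.06 and -0.05 on the atglistatin diet, and did not pass; Acads passed on the atglistatin diet with the clock index as a covariate (0.21, adjusted p = 0.049). Pdk4, the pyruvate dehydrogenase kinase that spares glucose, was at a median of 2.68, 1.26, 1.83 and 1.46 CPM in EtOH CON, EtOH ATGLi, Cort CON and Cort ATGLi libraries and passed nowhere (with atglistatin under vehicle, -0.87 ± 0.37, adjusted p = 0.208).

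The 2 ketogenic members moved in opposite directions. Bdh1, which interconverts acetoacetate and beta-hydroxybutyrate, had 146, 178 and 220.4 CPM in EtOH CON and 135, 191 and 226 CPM in EtOH ATGLi. Bdh1 in Cort CON was at 25.8, 74.3 and 129 CPM, and in Cort ATGLi at 70.6, 95.8 and 193 CPM. On the control diet no corticosterone library reached the lowest vehicle library; Bdh1 was the 1 member whose groups did not overlap in that comparison, against 6.11% of all genes. Bdh1 was 2.26-fold lower with corticosterone on the control diet (-1.18 ± 0.15, adjusted p = 9.26e-09) and lower on the atglistatin diet (-0.86 ± 0.15, adjusted p = 1.02e-05). With atglistatin under corticosterone it differed by 0.39 ± 0.14, adjusted p = 0.0588, and passed without any 1 of 6 libraries (Cort CON replicates 32, 33 and 34 and Cort ATGLi replicates 18, 26 and 38; 0.41 to 0.46, adjusted p = 0.0221 to 0.0499) and in limma voom with sample weights (0.36, adjusted p = 0.025). Acat1, the mitochondrial acetoacetyl-CoA thiolase, had medians of 371, 334, 417 and 406 CPM in EtOH CON, EtOH ATGLi, Cort CON and Cort ATGLi libraries. It was higher by 0.26 ± 0.10, adjusted p = 0.0228 on the control diet and 0.25 ± 0.10, adjusted p = 0.0322 on the atglistatin diet, with overlapping groups. Those calls were lost without any 1 of 3 (EtOH CON replicates 9 and 10 and Cort CON replicate 34; 0.17 to 0.23, adjusted p = 0.0512 to 0.08) and 9 libraries (EtOH ATGLi replicates 5, 10 and 13 and Cort ATGLi replicates 13, 23, 24, 26, 40 and 48; 0.19 to 0.24, adjusted p = 0.051 to 0.116), and the latter also with the replicate block (0.16, adjusted p = 0.178).

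Of the 3 cytosolic or membrane-anchored targets, Acot1 rose and Fabp1 fell with corticosterone on both diets. Acot1, the cytosolic thioesterase, lies with Acot2, Acot3 and Acot4 on chromosome 12 (GRCm38, chr12:83987861-84060402) and had 5.27, 28.1 and 41 CPM in EtOH CON and 25.8, 38.8 and 50.9 CPM in EtOH ATGLi. Acot1 in Cort CON was at 35.9, 81.6 and 129.9 CPM, and in Cort ATGLi at 58, 97.7 and 172 CPM. On the atglistatin diet every corticosterone library was above every vehicle library, the 1 member of which that was true (3.14% of all genes did not overlap there). Acot1 was 3.17-fold higher on the control diet (1.67 ± 0.22, adjusted p = 1.28e-08) and 2.67-fold higher on the atglistatin diet (1.42 ± 0.21, adjusted p = 5.76e-07). With atglistatin under vehicle it differed by 0.58 ± 0.22, adjusted p = 0.159, which passed with the replicate block (0.73, adjusted p = 0.0477). Fabp1, the abundant liver fatty acid binding protein, had 2939, 3832 and 5098 CPM in EtOH CON and 1832, 3459 and 5043 CPM in EtOH ATGLi. Fabp1 in Cort CON was at 1056, 2419 and 3548 CPM, and in Cort ATGLi at 1990.2, 2681 and 3698 CPM. Its groups overlapped, and it changed by -0.70 ± 0.14, adjusted p = 4.75e-05 on the control diet and -0.34 ± 0.14, adjusted p = 0.0485 on the atglistatin diet. The latter call was lost without any 1 of 13 libraries (EtOH ATGLi replicates 5, 6, 7, 9, 10, 11 and 12 and Cort ATGLi replicates 14, 18, 38, 41, 42 and 47; -0.36 to -0.26, adjusted p = 0.0516 to 0.138).

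Vnn1, a membrane-anchored pantetheinase and PPARalpha target, had 4.85, 18.4 and 32.5 CPM in EtOH CON and 15.6, 23.4 and 32.2 CPM in EtOH ATGLi. Vnn1 in Cort CON was at 7.85, 15.8 and 33.1 CPM, and in Cort ATGLi at 5.95, 9.76 and 23.9 CPM. Its lowest median was in the Cort ATGLi group, and all groups overlapped. Vnn1 was lower with corticosterone on the atglistatin diet (-1.09 ± 0.23, adjusted p = 0.000205), while on the control diet the difference was -0.06 ± 0.24, adjusted p = 0.857 (95% interval -0.54 to 0.41). The difference between those effects was -1.02 ± 0.33, adjusted p = 0.121, and it passed in limma voom with sample weights (-1.32, adjusted p = 0.0149). With atglistatin under corticosterone Vnn1 changed by -0.63 ± 0.22, adjusted p = 0.0477, a call lost without any 1 of 17 libraries (Cort CON replicates 29, 30, 33, 34, 35, 37 and 45 and Cort ATGLi replicates 13, 14, 17, 18, 26, 38, 40, 42, 47 and 48; -0.65 to -0.54, adjusted p = 0.0504 to 0.096), without those with Cpa1 above 20 CPM (-0.53, adjusted p = 0.0775), without those labelled diabetic (-0.44, adjusted p = 0.493) and with the clock index (-0.67, adjusted p = 0.139).

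The promoters of these genes were searched for the DR1 motif, which is the half-site AGGTCA repeated after 1 base of any kind, in windows from 250 bases before to 50 after the RefSeq start (GRCm38.p6), on both strands. Windows were found for 27 of the 35 genes; Acaa2, Decr1, Crat, Cyp4a10, Cyp4a14, Cyp4a31, Acat1 and Vnn1 had none. With up to 1 mismatch the motif occurred in 1 of the 27 genes, Fabp1, and in 0.554% of all 32851 windows; with up to 2 it occurred in 3 genes, adding Acot4 and Slc25a20, and in 3.86% of all windows. The matches are shown because these 3 genes differ in response: Fabp1 fell with corticosterone, and Acot4 and Slc25a20 rose. They read 5′ to 3′ on the strand of the motif, with capitals where the base equals the motif (the middle base may be any), as follows.
Fabp1, minus strand: AGGcCATAGGTCA
Acot4, minus strand: cGGcCAAAGGTCA
Slc25a20, plus strand: AGGTgAAAGGTCg
The 250 bases upstream of the Fabp1 and Acot4 starts, 5′ to 3′ on the gene's strand with the match in capitals, are these.
Fabp1, chr6:71199629-71199878, plus strand: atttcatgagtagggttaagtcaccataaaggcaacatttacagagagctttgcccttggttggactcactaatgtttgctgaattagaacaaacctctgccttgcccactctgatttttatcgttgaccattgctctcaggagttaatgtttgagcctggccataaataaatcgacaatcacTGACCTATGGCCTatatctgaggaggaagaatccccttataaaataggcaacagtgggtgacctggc
Acot4, chr12:84038129-84038378, plus strand: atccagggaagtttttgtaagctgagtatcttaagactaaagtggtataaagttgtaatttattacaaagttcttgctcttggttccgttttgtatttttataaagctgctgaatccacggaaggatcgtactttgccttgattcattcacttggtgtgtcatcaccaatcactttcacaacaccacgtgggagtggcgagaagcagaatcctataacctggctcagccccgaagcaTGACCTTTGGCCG
A match describes the sequence and does not show binding, and no match says only that these letters were not in the window.

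Set side by side on the control diet, corticosterone gave median log2 fold changes of 0.95 for the microsomal, 0.57 for the peroxisomal, 0.15 for the mitochondrial and -0.46 for the ketogenic genes. Of these, 2 of 5 microsomal, 5 of 8 peroxisomal, 8 of 16 mitochondrial and 1 of 2 ketogenic genes passed as higher, beside 22.5% of all genes. The microsomal median is the value of Cyp4a31, which did not pass, and 4 of those 5 genes lie in the Cyp4a cluster. The ketogenic median is the midpoint of Bdh1 (-1.18) and Acat1 (0.26). On the atglistatin diet the medians were 0.23, 0.16, 0.20 and -0.30. There 0, 3, 9 and 1 genes passed as higher in the same order, beside 19% of all genes. With atglistatin under vehicle the medians were 1.29, 0.29, 0.13 and 0.01. The 4 genes that passed were microsomal (Cyp4a10 and Cyp4a14) or peroxisomal (Acot3 and Acot4). Of the 16 mitochondrial genes 0 passed, which lies near the share of all genes (3.13% passed, 1.47% as higher) and does not set them apart. For Cyp4a14, Acot3 and Acot4 the vehicle groups did not overlap, which held for 0.252% of all genes. With the clock index as a covariate none of the 4 passed (Cyp4a10 0.98, adjusted p = 0.432, and Cyp4a14 1.88, adjusted p = 0.125), and 15 of all genes did. In the fit that lacked the covariate Cyp4a14 had 1.89, and 397 genes passed. Without the libraries with Cpa1 above 20 CPM, Cyp4a10 (1.08, adjusted p = 0.0454) and Cyp4a14 (1.49, adjusted p = 0.0131) passed, and Acot3 (1.83, adjusted p = 0.111) and Acot4 (0.69, adjusted p = 0.138) did not. The clock index ran from -3.25 to 2.05 in EtOH CON and from 0.27 to 7.35 in EtOH ATGLi libraries. Since index and diet varied together, the fit with the covariate can tell them apart only in part. The part of the index in these differences was not tested beyond that fit.

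A test of whether corticosterone acted differently on the diets (the interaction) passed for 2 of the 35 genes, Cyp4a10 (-1.95 ± 0.41, adjusted p = 0.00454) and Cyp4a14 (-1.83 ± 0.49, adjusted p = 0.0432), where 1.43% of all genes passed. Both were negative, so the change with corticosterone was lower on the atglistatin diet. Without the libraries labelled diabetic neither passed (Cyp4a10 -1.74, adjusted p = 0.0919, and Cyp4a14 -1.16, adjusted p = 0.553). Cyp4a14 also did not pass without the libraries with Cpa1 above 20 CPM (-1.29, adjusted p = 0.186) or with the clock index as a covariate (-1.83, adjusted p = 0.0611). The libraries with Cpa1 above 20 CPM include EtOH CON replicates 9 and 10, which held the group's lowest Cyp4a14, 19.2 and 13.4 CPM. Cyp4a14 further lost its call without any 1 of 19 libraries (EtOH CON replicates 2, 3, 11 and 15, EtOH ATGLi replicates 6, 8, 11 and 14, Cort CON replicates 30, 34, 35, 37 and 45 and Cort ATGLi replicates 17, 18, 40, 42, 47 and 48; -1.85 to -1.71, adjusted p = 0.0528 to 0.0699). Cyp4a31 (-0.50 ± 0.65, adjusted p = 0.844) passed without Cort ATGLi replicate 41 (-1.59, adjusted p = 0.026). Acot3 differed between diets by -1.51 ± 0.65, adjusted p = 0.311 and Acot4 by -0.36 ± 0.26, adjusted p = 0.649, so a difference between the diets was not detected for these genes. The 6 members that passed on the control diet and not on the atglistatin diet were Cpt1a, Decr1, Acot3, Ech1, Cyp4a10 and Cyp4a14. Of these the interaction test passed for Cyp4a10 and Cyp4a14 alone, and both calls depended on the libraries kept.

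**Figure D4:**
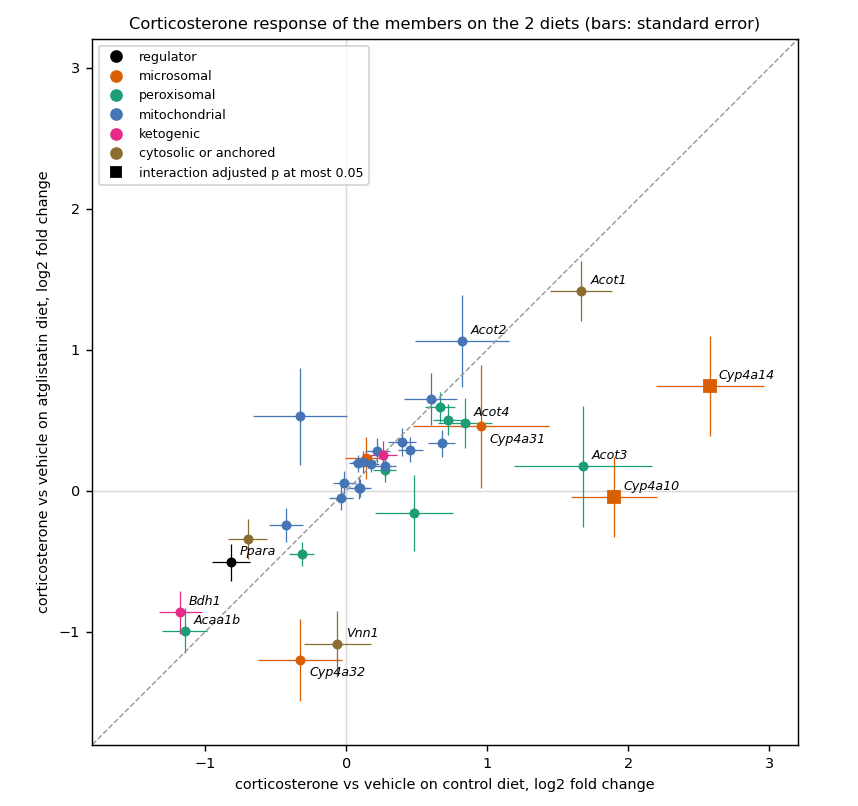
Log2 fold change with corticosterone on the atglistatin diet (vertical axis) against that on the control diet (horizontal axis) for the 35 genes, with bars of 1 standard error, colours for compartments and a dashed line at equal change; squares passed the interaction test. Cyp4a10 and Cyp4a14, the squares, lie under the line on the right, and most other genes lie near it; no library enters both axes.

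The diabetic label did not follow labelled fed glucose alone. Cort CON replicate 36, labelled nondiabetic, had a glucose of 242, and Cort ATGLi replicate 26, labelled diabetic, had 212. Of the 14 Cort CON mice 9 were labelled diabetic, against 1 of 14 on atglistatin, so fits without diabetic labels kept 5 and 13 libraries. In such a fit 7 of the 17 members higher on the control diet still passed, and Cpt2 (0.01, adjusted p = 0.947), Slc25a20 (0.17, adjusted p = 0.342), Crat (0.11, adjusted p = 0.685), Acadvl (0.14, adjusted p = 0.176), Decr1 (0.13, adjusted p = 0.374) and Acot2 (0.39, adjusted p = 0.56) did not. Nor did Acot3 (1.16, adjusted p = 0.141), Acot4 (0.48, adjusted p = 0.0757), Ech1 (0.13, adjusted p = 0.384) and Acat1 (0.22, adjusted p = 0.228). Cyp4a14, Cyp4a10, Acot1, Acadm, Pex11a, Hsdl2 and Etfdh kept their calls, Hsdl2 at 0.34 instead of 0.67; of the lower genes Acaa1a did not (-0.28, adjusted p = 0.0666). Between diets under corticosterone, the same fit had 7 members higher: Ppara, Cpt1a and Hsdl2 (0.58 instead of 0.28), which passed with all libraries, and Cpt2 (0.36, adjusted p = 0.0336), Crat (0.74, adjusted p = 0.00769), Acot4 (0.65, adjusted p = 0.0493) and Aldh3a2, which did not. In limma voom Crat (0.40, adjusted p = 0.0441) and Acot4 (0.45, adjusted p = 0.0356) passed there too. With atglistatin under vehicle Hsdl2 passed in limma voom (0.38, adjusted p = 0.0211) and without diabetic labels (0.35, adjusted p = 0.0339), and Cyp4a31 passed in limma voom (1.23, adjusted p = 0.0244). On the atglistatin diet the corticosterone call of Acat1 was lost without diabetic labels (0.24, adjusted p = 0.0651), and with no filter on low counts those of Acat1 (0.23, adjusted p = 0.0534) and Hadha (0.18, adjusted p = 0.0585) and the call of Hsdl2 between diets under corticosterone (0.27, adjusted p = 0.0568) were lost.

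Without the libraries with Cpa1 above 20 CPM, 5 of the 17 members higher with corticosterone on the control diet did not pass: Cpt2 (0.23, adjusted p = 0.0655), Acot2, Crat (0.46, adjusted p = 0.078), Acot3 (1.17, adjusted p = 0.0885) and Acat1 (0.17, adjusted p = 0.11). For corticosterone on the atglistatin diet, Hadha (0.20, adjusted p = 0.0663), Acot4 (0.47, adjusted p = 0.0511) and Fabp1 (-0.33, adjusted p = 0.0947) did not pass in that fit, while Acot2 passed between diets under corticosterone (0.83, adjusted p = 0.0489). With the compared groups alone Cpt2 (0.20, adjusted p = 0.0696) and Acat1 (0.24, adjusted p = 0.0713) did not pass on the control diet, nor Hadha (0.18, adjusted p = 0.0618) and Acaa2 (0.17, adjusted p = 0.0508) on the atglistatin diet, nor Hsdl2 between diets under corticosterone (0.28, adjusted p = 0.0785). The clock index as a covariate ended the atglistatin-diet calls of Ppara, Acot2 (0.72, adjusted p = 0.153), Acat1 (0.23, adjusted p = 0.113) and Fabp1 (-0.36, adjusted p = 0.0713), and Decr1 passed there (0.27, adjusted p = 0.0117); on the control diet it ended that of Acot2 (0.72, adjusted p = 0.0742).

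Within the Cort CON group, 9 libraries labelled diabetic were set against 5 labelled nondiabetic, with replicate 36 among the latter. This gave 0 genes called by edgeR and limma voom (12003 tested each) and 0 by DESeq2 (14188 tested). At an unadjusted p under 0.05 edgeR had 448 genes (3.73%), DESeq2 543 (3.83%) and limma voom 1439 (12%). Members under that unadjusted level in edgeR were 6: Acot2, Aldh3a2, Cpt2, Cyp4a14, Hsdl2 and Slc25a20; DESeq2 had 10 members there and limma voom 14. Cyp4a14 differed by 0.88 ± 0.42 (unadjusted p = 0.0496, adjusted p = 0.992), Cpt2 by 0.27 ± 0.12 and Bdh1 by -0.36 ± 0.25 on the log2 scale, diabetic minus nondiabetic. The median of the 35 was 0.18, beside -0.00 for all genes.

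Libraries of a group were not equally high or low across these genes. Cort ATGLi replicate 23 was the highest of its group in 27 of the 35, and EtOH ATGLi replicate 5 was the lowest of its group in 22. Among EtOH CON libraries replicate 12 was highest in 15 members, replicate 10 was lowest in 14 and replicate 9 in 13. In the Cort CON group the extremes were shared more widely, with replicate 45 highest in 11 and replicates 33 and 36 each lowest in 8. Spread differed by gene: the pooled within-group SD of log2 CPM was 1.16 for Acot3, 1.02 for Cyp4a14, 0.87 for Cyp4a31 and 0.78 for Cyp4a10, where the median gene had 0.262.

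Other genes of the pathway were followed as a list of 97, of which 94 were tested. Corticosterone on the control diet raised 30 and lowered 17 (median 0.05), and on the atglistatin diet 25 and 19 (median 0.03). Those are 50.0% and 46.8% of the 94, beside 44.2% and 36.7% of all genes, so on the control diet the share lies near the background. Of 28 genes listed here as further PPARalpha targets, 14 were higher and 5 lower on the control diet. Whether each is a target was not tested. Higher ones included the lipid droplet protein Plin5 (1.98 ± 0.15, adjusted p = 4.41e-15), the hepatokine Fgf21 (4.08 ± 0.68, adjusted p = 2.03e-06) and the lipase inhibitor Angptl4 (1.66 ± 0.25, adjusted p = 4.08e-07). Plin2, another droplet protein, was lower (-0.48 ± 0.13, adjusted p = 0.00156). Among 24 further peroxisomal genes 7 were higher, such as the bifunctional Hsd17b4 (0.70 ± 0.08, adjusted p = 1.32e-09), and 7 lower, such as the carnitine transferase Crot (-1.62 ± 0.13, adjusted p = 2.31e-14) and the CoA hydrolase Nudt7 (-2.23 ± 0.25, adjusted p = 1.83e-10). Of 6 further ketogenic genes 1 was higher and 2 were lower, among them Bdh2 (-0.58 ± 0.12, adjusted p = 6.78e-05), a short-chain dehydrogenase (median -0.02), and on the atglistatin diet 2 were higher and 4 lower (median -0.43). Of 16 further mitochondrial genes 4 were higher and 1 lower, and of 20 coregulators and related factors 4 were higher and 2 lower, shares of 31.2% and 30% that lie under that of all genes; the coactivator Lpin1 (2.78 ± 0.40, adjusted p = 1.33e-07) and the receptor Esrra (0.78 ± 0.11, adjusted p = 1.36e-07) were higher and Ppargc1a differed by 0.25 ± 0.17, adjusted p = 0.234.

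With atglistatin under vehicle 5.32% of the related genes passed, beside 3.13% of all genes: 1 was higher, the enoyl-CoA isomerase Eci2 (0.46 ± 0.09, adjusted p = 0.00162), and 4 were lower, among them the peroxisomal thiolase Scp2 (-0.36 ± 0.08, adjusted p = 0.00966), the malonyl-CoA producer Acacb (-0.75 ± 0.17, adjusted p = 0.00666) and the receptor Ppard (-1.10 ± 0.27, adjusted p = 0.0103). With the clock index as a covariate none of these 4 named genes passed (Eci2 0.28, adjusted p = 0.403, and Ppard -0.37, adjusted p = 0.812), nor did Scp2 without the libraries with Cpa1 above 20 CPM (-0.30, adjusted p = 0.143). Under corticosterone 3 were higher and 17 lower (21.3% of the 94, beside 11.7% of all genes, 6.47% as lower). Of those lower, 11 were among the 28 genes listed as further PPARalpha targets (median -0.24). They include the omega-hydroxylase Cyp4a12b (-1.98 ± 0.32, adjusted p = 9.92e-06), Plin5 (-0.57 ± 0.13, adjusted p = 0.00174), Acacb (-0.65 ± 0.15, adjusted p = 0.00147) and the fatty acid carrier Fabp4 (-0.65 ± 0.14, adjusted p = 0.00103). Oxct1, which uses ketone bodies for fuel and is known for its low level in hepatocytes, was lower (-1.19 ± 0.23, adjusted p = 0.000211), and Crot was higher (0.51 ± 0.12, adjusted p = 0.00268). Fgf21 differed by -0.06 ± 0.41, adjusted p = 0.956 between diets under corticosterone and passed as lower without Cort ATGLi replicate 41 (-0.96, adjusted p = 0.0415). Without the libraries labelled diabetic, Plin5 (-0.36, adjusted p = 0.291) and Acacb (-0.48, adjusted p = 0.178) did not pass between diets under corticosterone, nor did Crot with the clock index as a covariate (0.43, adjusted p = 0.0615).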

How the data were processed

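Per the labels' protocols, RNA from frozen, powdered liver was made into QuantSeq libraries and read for 50 bases. The authors deposited a table of raw counts and a second table of normalized signal values; per the submitters' processing notes the build was GRCm38 and the tools R 3.6 and DESeq2 1.24.0. The aligner, counter, annotation and strand option were not given in the sources used here. Signal values deposited by the authors (normalized) equal the counts over 1 factor per library and served for symbols alone. Every library carries its own glucose and insulin label, so libraries were taken as separate mice; beyond that, p-values measure the spread between these samples. Counts of near-identical copies or of overlapping genes may be split.

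Counts were analysed in R 4.3.3 with edgeR 4.0.16: genes were kept by filterByExpr (minimum count 10, minimum total 15), libraries scaled by TMM, and all 48 fitted with 1 mean per group. Contrasts used the quasi-likelihood test with Benjamini-Hochberg adjustment over all 12688 genes (12003 for diabetic labels), and an adjusted p of at most 0.05 counts as passed. The SE is the absolute log2 fold change over the square root of F, intervals use the degrees of freedom of that test with no adjustment for multiple testing, and CPM use TMM-scaled totals. Each "x of y libraries" counts treated libraries on the called side of the other group's mean CPM. The test was first tested on simulated data. Members and lists were chosen with earlier results of these data known. All members are named, and of the related list those among the 3 called genes of smallest p per group and contrast, with Fgf21, Plin2, Angptl4 and Ppargc1a; some genes this rule allowed are not reported here. Other settings were RLE factors, DESeq2 1.42.0, limma 3.58.1 voom with sample weights, no count filter, the compared groups alone, a replicate-number block, the clock index as a covariate, and fits without diabetic labels, without libraries with Cpa1 above 20 CPM and without each library in turn. Promoters are RefSeq's, and coordinates and shared words come from GENCODE M21 on GRCm38. All pairs of libraries of a group differed by more than sampling noise (smallest chi-square per degree of freedom 5.80).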

Additional observations from a re-analysis of the deposited data

Results flagged for a closer look

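In groups of 10 libraries, 4 of the 70 gene and group pairs examined held a library far from the others, and about 1 in 20 pairs would by chance. Crat had 8.17 CPM in EtOH CON replicate 10, with the next library at 14.3 CPM. Acot3 had 40.3 CPM in EtOH ATGLi replicate 14, and the next library had 17.4 CPM. Cyp4a31 had 7.42 CPM in EtOH CON replicate 15, with 4.51 CPM next to it. Cyp4a32 had 1.70 CPM in EtOH ATGLi replicate 10, with the next at 1.09 CPM. With all libraries the test of the interaction passed for Cyp4a10 (-1.95 ± 0.41, adjusted p = 0.00454) and Cyp4a14 (-1.83 ± 0.49, adjusted p = 0.0432). Neither passed without the libraries labelled diabetic (Cyp4a10 -1.74, adjusted p = 0.0919, and Cyp4a14 -1.16, adjusted p = 0.553). Nor did Cyp4a14 without the libraries with Cpa1 above 20 CPM (-1.29, adjusted p = 0.186) or with the clock index as a covariate (-1.83, adjusted p = 0.0611). Of the related genes the test passed for the acyl-CoA synthetases Acsl3 (1.06 ± 0.20, adjusted p = 0.00173) and Acsl4 (0.83 ± 0.19, adjusted p = 0.0113) and for Txnip (-1.21 ± 0.32, adjusted p = 0.0414), a regulator of glucose uptake. Without the libraries with Cpa1 above 20 CPM, Acsl4 (0.62, adjusted p = 0.166) and Txnip (-1.02, adjusted p = 0.248) did not pass, nor did they without the libraries labelled diabetic (0.76, adjusted p = 0.13 and -1.19, adjusted p = 0.08), nor Txnip with the clock index as a covariate (-1.15, adjusted p = 0.0704). Txnip lost its call without any 1 of 18 libraries (EtOH CON replicates 3, 9, 10, 11 and 15, EtOH ATGLi replicates 8, 11, 12 and 14, Cort CON replicates 30, 34, 36 and 37 and Cort ATGLi replicates 14, 17, 18, 23 and 48; -1.22 to -1.10, adjusted p = 0.0506 to 0.0727).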

How the results depend on the processing

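No call of a member reversed under any setting. Of 210 results of the 35 genes, 210 kept their call with RLE size factors, 209 with DESeq2, 202 with limma voom and 207 with no filter on low counts. Results that passed in neither fit count as kept, and most of the 210, with all 35 for the diabetic labels, had not passed. Of 175 results, 155 were kept without the libraries labelled diabetic. The same count was 160 without those with Cpa1 above 20 CPM and 158 with the clock index as a covariate. A change of sign in a value that passed in neither fit did not count as a change. There were 318 of these over the members and the named related genes. Without the libraries labelled diabetic, the genes called for corticosterone on the control diet went from 5606 to 3614 and the members higher from 17 to 7; for atglistatin under corticosterone the calls went from 1479 to 609, with 7 members higher and 0 lower instead of 3 and 1; for the interaction they went from 181 to 76, with 0 members lower instead of 2. Without the libraries with Cpa1 above 20 CPM, atglistatin under vehicle had 207 calls (397 with all) with 2 members higher (4 with all), atglistatin under corticosterone had 5 members higher and 0 lower, and the interaction had 64 calls with 1 member lower. With the clock index as a covariate, atglistatin under vehicle had 15 calls and 0 members higher, atglistatin under corticosterone 793 calls and 0 members either way, and the interaction 1 member lower. limma voom gave 899 calls under vehicle, 6 members higher with atglistatin under corticosterone and 359 interaction calls; with the compared groups alone 2 members were lower with atglistatin under corticosterone. Fewer libraries enter the fits that leave some out; otherwise the cause was not tested.

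Leaving out each library in turn gave 5277 to 5618 calls for corticosterone on the control diet (members higher 14 to 17, lower 6 to 6), and 4247 to 4650 on the atglistatin diet (members 9 to 14 and 6 to 8). It gave 277 to 519 for atglistatin under vehicle (members higher 3 to 5), 1253 to 1719 under corticosterone (members 2 to 5 and 0 to 2), and 122 to 237 for the interaction (members lower 1 to 3). The 5 members higher under corticosterone were reached without Cort ATGLi replicate 18 or Cort CON replicate 45. The labels do not say that the title numbers pair the samples. The correlation of same-numbered deviations ran from -0.117 to 0.036, which cannot exclude that they do, since few numbers are shared between groups. With the title numbers as a replicate block, calls were 264 for atglistatin under vehicle (members higher 4) and 4182 for corticosterone on the atglistatin diet (members higher 11, lower 7), and 5 of 70 member results changed their call. Low counts limit Cyp4a32, which was under 2 CPM in every library.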

Other observations

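In the Cort CON group Acot3 fell into separate levels: replicates 32, 33, 34 and 36 had 0.636, 0.261, 0.961 and 1.27 CPM, and the other 10 libraries had at least 5.02 CPM. The same 4 libraries held the lowest Acot4 of the group (6.17, 5.17, 5.53 and 6.26 CPM), the next being 10.3 CPM. Cyp4a10 was not low in 3 of them (601, 637 and 978 CPM) and was lowest of the group in replicate 36 (193 CPM). Replicates 32, 33 and 34 carry the lowest labelled insulin of the group (14.5, 9.31 and 16.8), the next being 27.7 in replicate 49, while replicate 36 has 38.7. Replicate 34 is labelled diabetic, and replicates 32, 33 and 36 nondiabetic. The latter were thus among the 5 Cort CON libraries of the fits without diabetic labels, in which Acot3 and Acot4 did not pass on the control diet. These libraries were picked after their values were seen, and no test was made.

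Cort ATGLi replicate 41, with the lowest insulin label of its group, held the group's highest Acot2 (179 CPM), Cyp4a31 (96.8 CPM), Pdk4 (8.08 CPM) and Fgf21 (25.5 CPM). It also held the group's lowest Ppara (52.5 CPM), Acaa1b (196 CPM) and Fabp1 (1990.2 CPM). The group medians of these genes were 22.5, 6.05, 1.46, 1.77, 63.2, 377 and 2681 CPM, in the order Acot2, Cyp4a31, Pdk4, Fgf21, Ppara, Acaa1b and Fabp1. The same library had the group's highest sums of macrophage (267 CPM, median 67), stellate (353 CPM, median 255) and endothelial markers (205 CPM, median 159), and their part in its values was not tested.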
